A study of Mus musculus with 5 samples.

Results

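The machinery that copies DNA at the replication fork, with the enzymes that supply it with deoxynucleotides, was described through 45 genes. They were chosen by function and found by their symbols in the authors' table of normalized signal, which held all 45 among its 27526 genes, and all 45 passed the filter on low counts in every fit described here. The study measured mRNA in Kit+ leukemia stem cells of a mouse acute myeloid leukaemia driven by AML1-ETO9a, a shortened form of the AML1-ETO fusion protein, and its title names the question of whether self-renewal of these cells depends on Plcg1, which encodes the signalling enzyme phospholipase C gamma 1. In 3 libraries Plcg1 was labelled as conditionally deleted (Plcg1 -/-, here deleted 2, deleted 4 and deleted 6), and in 2 libraries it was labelled wild-type (Plcg1 +/+, here wild-type 1 and wild-type 3). All 5 carried AML1-ETO9a. The sources used here do not give the age of the mice, the Cre driver of the deletion or whether each library came from a separate mouse, so p-values measure the spread between these libraries, which may be technical.

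Replication starts at origins bound by the origin recognition complex (ORC), where Cdc6 and Cdt1 load the Mcm2-7 ring onto DNA, a step called licensing. In S phase the ring is turned into an active helicase by Cdc45 and the GINS proteins, polymerases and primase copy the unwound strands, and a sliding clamp loaded by replication factor C keeps the polymerases on DNA. Ribonucleotide reductase, thymidylate synthase and thymidine kinase make the deoxynucleotides, and many of these genes are transcribed mainly in dividing cells under E2F transcription factors.

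Library deleted 6 stood apart from the others, and its label could not be checked in these counts. Plcg1 had 53.0, 26.9 and 37.1 CPM (counts relative to a library size scaled with TMM factors) in deleted 2, 4 and 6, against 22.1 and 34.0 CPM in wild-type 1 and 3, so it was not lower in the libraries labelled deleted. Library order is deleted 2, 4 and 6 and wild-type 1 and 3 wherever libraries are not numbered. Counts are totals per gene and include exons outside any deleted stretch, so they do not test the deletion. Kit, the surface receptor used to define the cells, had 672, 304 and 3.08 CPM in deleted 2, 4 and 6, against 26.8 and 32.1 CPM in wild-type 1 and 3. Kit mRNA was thus lowest in deleted 6, and it was also far lower in the wild-type libraries than in deleted 2 and 4. Kit protein at the surface was not measured here, so these counts do not test the label of Kit+ cells. Gene counts per library ran from 37306507 to 57133771, and the members had between 57 and 38234 counts in a library. Deleted 6 was sequenced in lane 5, deleted 2, deleted 4 and wild-type 3 in lane 4, and wild-type 1 in lane 3, so the lane of deleted 6 cannot be told apart from that library. Tests are therefore given with and without deleted 6.

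The replication genes were lower in the libraries labelled deleted, by a modest amount in deleted 2 and 4 and by a large amount in deleted 6. Summed over the 45 genes, they took 4860, 4349 and 1049 CPM in deleted 2, 4 and 6, against 6340 and 7054 CPM in wild-type 1 and 3. All 3 deleted libraries lay below both wild-type libraries. The median gene stood at -0.47, -0.63 and -2.54 in deleted 2, 4 and 6 on the log2 scale relative to the wild-type mean. In 39 of the 45 genes every deleted library was below every wild-type library, a pattern shown by 23.7% of all 16120 tested genes, and in 0 of 45 was every deleted library above, against 22.4% of all genes. The 6 genes whose groups overlapped were Orc1, Orc2, Orc4, Orc5, Rfc1 and Rfc2. These are bulk libraries, in which fewer cells in cycle and less RNA of these genes per cell cannot be told apart.

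**Figure D1:**
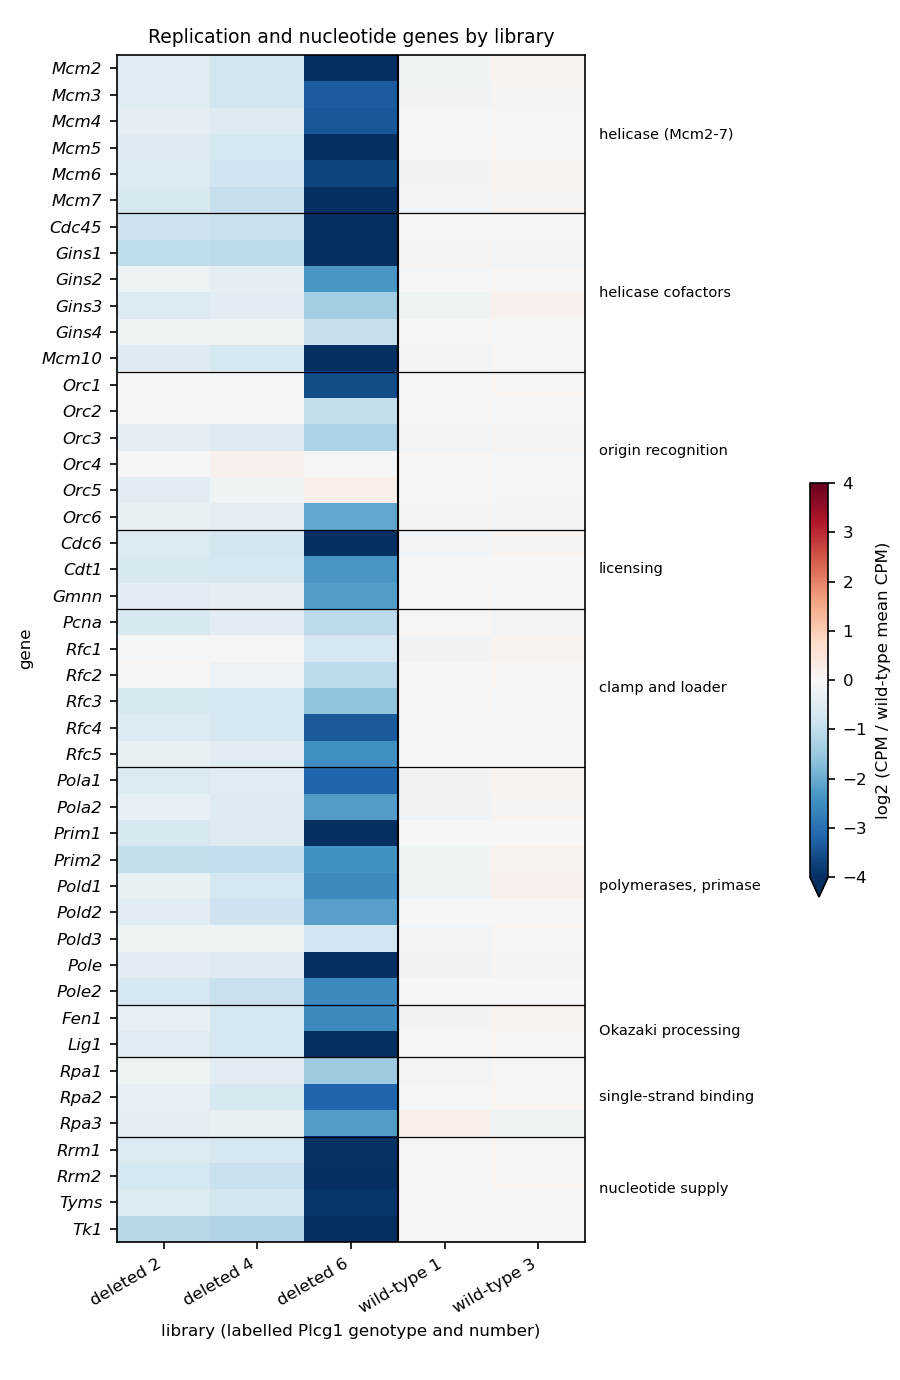
Level of each of the 45 genes (rows, grouped by role) in each library (columns), as log2 of its CPM over the mean CPM of the 2 wild-type libraries; values below -4 take the darkest colour. Deleted 2 and deleted 4 are pale blue for most genes, deleted 6 is dark blue for most, and Orc4 and Orc5 are close to white there.

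No member passed the test over all 5 libraries. The median log2 fold change of the 45 genes was -0.95, against 0.01 over all tested genes, with 44 genes below 0 and 1 above it, against 49.4% and 50.6% of all genes. However, edgeR's quasi-likelihood test with Benjamini-Hochberg adjustment called 0 lower and 0 higher, as it did for all genes (0.0% in each direction). The members' adjusted p ran from 0.303 to 0.943. At an unadjusted p under 0.05 it had 3 members lower (Pcna, Rfc3 and Prim2) and 0 higher, against 5.42% of all genes lower and 9.44% higher. DESeq2 also called 0 members, while calling 3.05% of all genes lower and 5.75% higher. limma-voom with sample weights called 5 members lower (Prim2, Rfc3, Pole2, Tk1 and Pold2) and 0 higher, against 5.87% and 7.63% of all genes. It gave weights of 0.895, 3.66 and 0.12 to deleted 2, 4 and 6, against 1.61 and 1.58 to wild-type 1 and 3. Deleted 4 thus had the largest weight in that fit.

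Without deleted 6, that is deleted 2 and 4 against wild-type 1 and 3, edgeR called 17 of the 45 genes lower and 0 higher, against 5.07% of 15787 genes lower and 7.89% higher. The 17 fell by between 0.56 and 1.14 on the log2 scale, with adjusted p between 0.0041 and 0.0496. Of the other 28 genes, 25 had a negative and 3 a positive log2 fold change, and 49.5% of all genes had a positive one. The median log2 fold change of the 45 genes was -0.50, against -0.01 over all genes tested in these 4 libraries. In 40 of the 45 both deleted libraries were below both wild-type libraries, against 29.8% of all genes, and in 0 were both above, against 28.7%. Within lane 4, which holds deleted 2, deleted 4 and wild-type 3 alone, 43 of 45 genes were lower in both deleted libraries than in wild-type 3, against 40.0% of all genes, a comparison with 1 wild-type library. There edgeR called 0 members lower and 0 higher, with a smallest adjusted p of 0.0524, against 0.779% and 1.26% of all genes.

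**Figure D2:**
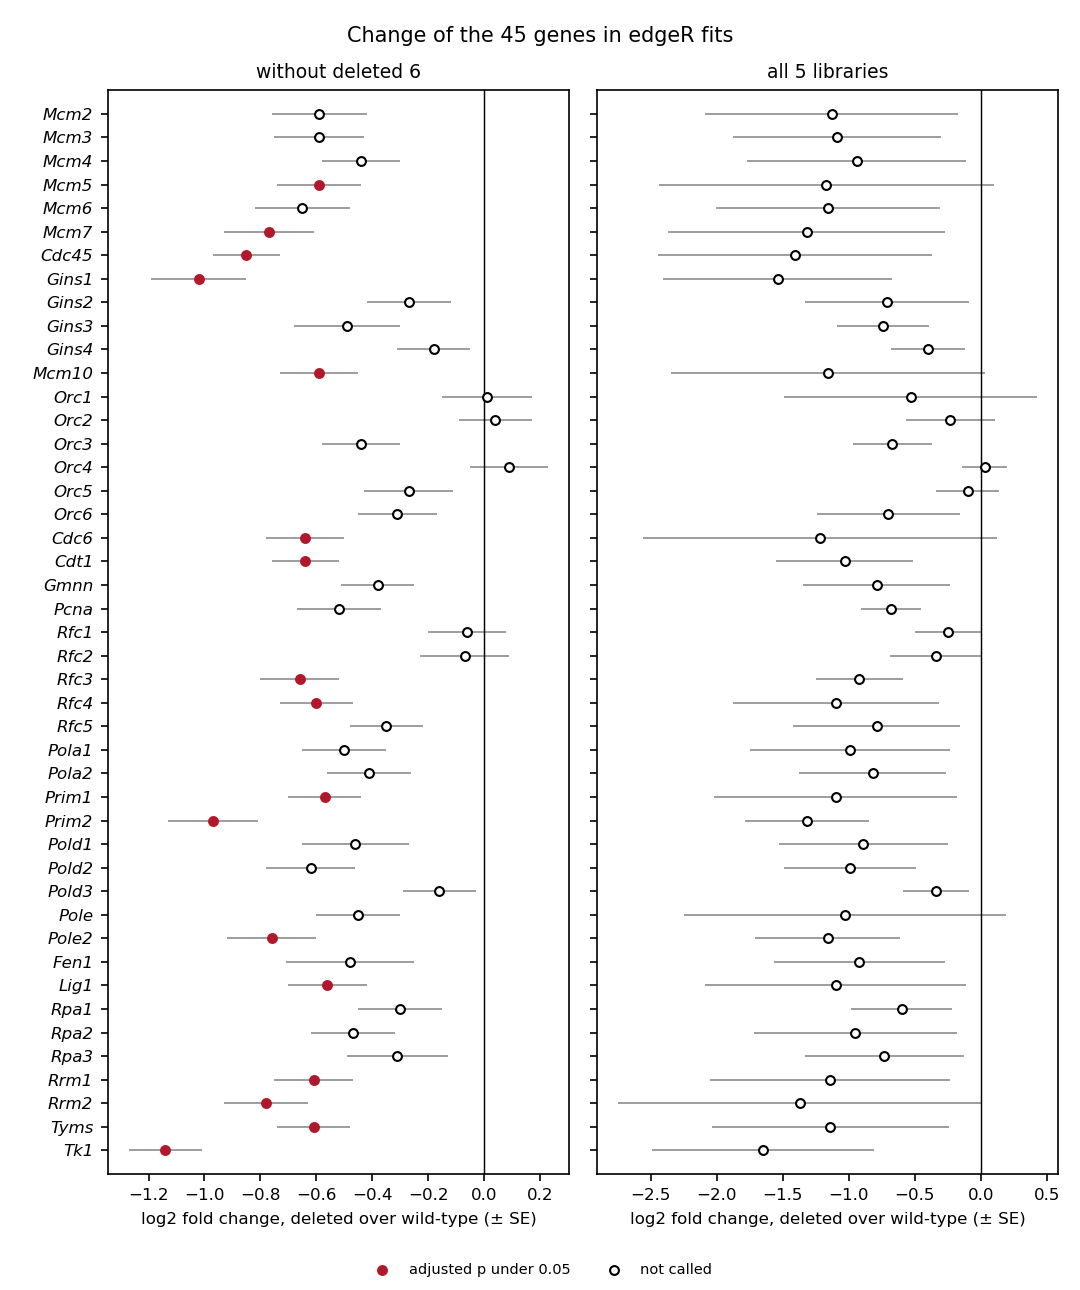
Log2 fold change of the 45 genes, deleted over wild-type, with its standard error as a bar, from edgeR without deleted 6 (left) and with all 5 libraries (right); the horizontal axes differ in range. Red points mark the 17 genes with an adjusted p under 0.05 without deleted 6; with all 5 libraries none is marked and the standard errors are longer.

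Markers of dividing cells moved with these genes. The proliferation list of 10 genes (Mki67, Cdk1 and others; Top2a is also among the fork partners below) summed to 1419, 1388 and 37.9 CPM in deleted 2, 4 and 6, against 1966 and 2091 CPM in wild-type 1 and 3. All 10 were lower in every deleted library than in every wild-type library, against 23.7% of all genes. Without deleted 6, 3 of the 10 were called lower, against 5.07% of all genes, and their median log2 fold change was -0.49, next to -0.50 for the replication genes. Markers of other cells differed as well. The 8 mast cell markers summed to 10542, 4749 and 33.9 CPM in deleted 2, 4 and 6, against 62.4 and 107 CPM in wild-type libraries, and the 8 macrophage markers summed to 1398, 2870 and 4172 CPM in deleted libraries, against 1154 and 1365 CPM in wild-type libraries. The 7 progenitor markers summed to 1311, 694 and 8.05 CPM in deleted 2, 4 and 6, against 600 and 614 CPM in wild-type 1 and 3, and the 5 promyelocyte granule genes to 8819, 7007 and 12.6 CPM in deleted libraries, against 12039 and 12977 CPM in wild-type libraries. Without deleted 6 edgeR called 8 of the 8 mast cell markers and 2 of the 8 macrophage markers higher, 3 of the 7 progenitor markers higher and 3 lower, and 3 of the 5 granule genes lower, against 7.89% of all genes higher and 5.07% lower. Gata2 is in both the progenitor and the mast cell list. The progenitor sum mixes opposite changes: Kit, Cd34 and Gata2 were the 3 called higher, and Myb, Meis1 and Hoxa9 the 3 called lower. Hoxa9 had 0.841, 1.66 and 0.0678 CPM in deleted 2, 4 and 6, against 145 and 128 CPM in wild-type 1 and 3. The 2 macrophage markers called higher were Adgre1 and Mrc1. The macrophage sum of deleted 6 held 2451 CPM of Cd68. Csf1r, Adgre1, Mertk and Mrc1 were there at 183%, 241%, 201% and 173% of the median of the other libraries. C1qa, C1qb and Fcgr1 were at 35.6%, 13.9% and 18.5% of that median. Fcgr1 had 3.36, 16.8 and 4.03 CPM in deleted 2, 4 and 6, against 26.8 and 32.8 CPM in wild-type 1 and 3. No marker was at 0 counts in any library. The part of proliferation and of other cell types in the lower replication genes was not tested.

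Deleted 6 held little of most of these mRNAs, but the genes differed widely among themselves. It was the lowest of the 5 libraries for 44 of the 45 genes, against 37.9% of all genes. Its CPM was under 10% of the median of the other 4 libraries for 16 genes, under 20% for 21 and under 50% for 38, against 7.95%, 11.1% and 23.0% of all genes. The median over the 45 genes was 20.1% and over all genes 96.6%. The genes ran from Rrm2 at 1.28% through Cdc6 at 1.53% and Mcm5 at 2.13% to Rfc1 at 65.7%, Orc4 at 91.7% and Orc5 at 125%. With 57 counts for Cdc6 and 288 for Rrm2 in deleted 6, the lowest levels still rested on counts well above 0.

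**Figure D3:**
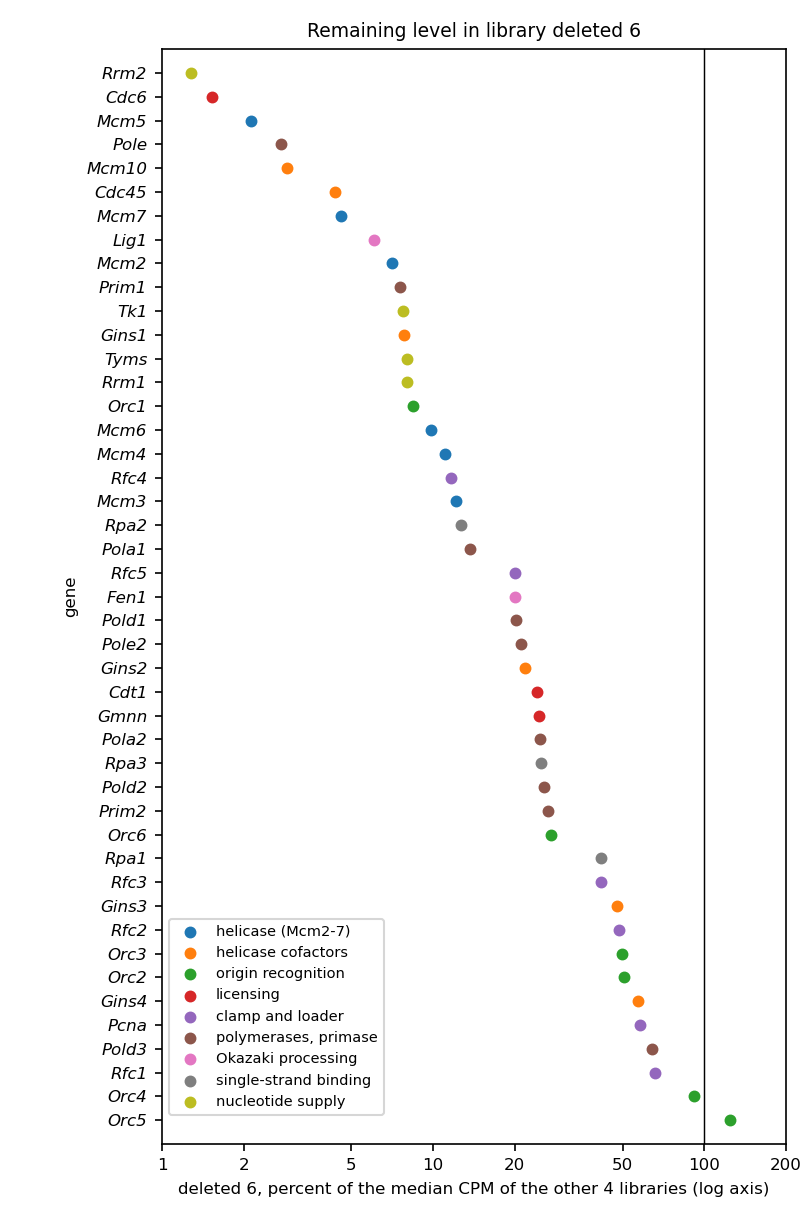
CPM of each gene in deleted 6 as a percent of its median CPM in the other 4 libraries (log axis), sorted from low to high and coloured by role; the line marks 100%. Nucleotide supply and helicase genes lie at 12.2% or less, and Orc5 alone lies above the line.

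Because E2F sites are the textbook feature of this group, the promoters of the genes at both ends of that order are shown, with Mcm6 as the example with most matches. Each is the 300-base window from 250 bases before to 50 bases after a RefSeq transcription start in GRCm38.p6, written along the gene's strand. Capitals mark matches to the E2F spellings TTTCCCGC, TTTGGCGC, TTTCGCGC or TTTGCCGC on either strand; where matches on opposite strands overlap they form 1 capital run. The windows are chr12:24708004-24708303, plus strand (Rrm2); chr11:98907901-98908200, plus strand (Cdc6); chr8:75109259-75109558, plus strand (Mcm5); chr1:128359656-128359955, minus strand (Mcm6); and chr5:22550289-22550588, minus strand (Orc5).
Rrm2: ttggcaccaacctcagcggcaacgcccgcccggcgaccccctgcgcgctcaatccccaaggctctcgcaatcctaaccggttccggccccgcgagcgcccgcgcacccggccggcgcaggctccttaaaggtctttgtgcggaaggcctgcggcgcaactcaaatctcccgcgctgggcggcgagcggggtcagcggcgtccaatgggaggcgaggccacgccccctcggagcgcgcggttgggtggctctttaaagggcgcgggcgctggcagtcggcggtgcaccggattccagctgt
Cdc6: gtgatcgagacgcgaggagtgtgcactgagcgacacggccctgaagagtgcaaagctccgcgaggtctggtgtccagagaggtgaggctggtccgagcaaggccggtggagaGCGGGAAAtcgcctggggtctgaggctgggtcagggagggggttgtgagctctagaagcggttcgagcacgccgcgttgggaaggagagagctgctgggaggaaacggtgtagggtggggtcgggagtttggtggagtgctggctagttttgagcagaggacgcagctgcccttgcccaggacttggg
Mcm5: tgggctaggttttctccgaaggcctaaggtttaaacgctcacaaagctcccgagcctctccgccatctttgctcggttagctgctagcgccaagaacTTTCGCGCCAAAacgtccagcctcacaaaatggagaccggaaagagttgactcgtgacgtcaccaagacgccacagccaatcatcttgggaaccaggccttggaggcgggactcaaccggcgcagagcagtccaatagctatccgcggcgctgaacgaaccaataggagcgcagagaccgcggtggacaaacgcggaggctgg
Mcm6: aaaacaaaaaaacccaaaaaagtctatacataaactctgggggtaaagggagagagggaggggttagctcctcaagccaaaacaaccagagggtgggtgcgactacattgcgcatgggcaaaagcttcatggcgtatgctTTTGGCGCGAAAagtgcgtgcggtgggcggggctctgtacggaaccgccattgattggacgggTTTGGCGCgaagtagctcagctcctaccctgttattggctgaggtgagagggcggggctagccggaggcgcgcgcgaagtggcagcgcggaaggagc
Orc5: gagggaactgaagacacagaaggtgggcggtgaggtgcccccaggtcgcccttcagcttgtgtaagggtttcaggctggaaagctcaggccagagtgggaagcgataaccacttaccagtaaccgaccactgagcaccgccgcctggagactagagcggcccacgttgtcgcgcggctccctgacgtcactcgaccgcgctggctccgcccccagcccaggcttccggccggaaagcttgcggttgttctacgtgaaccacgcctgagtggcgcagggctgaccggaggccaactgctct
Mcm5 held 2 overlapping matches, 153 and 149 bases before the start, Mcm6 held 3, at 110, 106 and 47 bases before it, and Cdc6 held 1, at 138 bases before it. For Cdc6 this RefSeq start lies 350 bases inside the gene as annotated by GENCODE. The whole Cdc6 window and its match thus fall within the gene coordinates given below. Rrm2 and Orc5, the lowest and the highest of the 45 genes in deleted 6, held none of these spellings in this window, which says only that these letters are not there.

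Promoter windows were found for 37 of the 45 genes. An E2F spelling stood in a window of 15 of the 37 (40.5%), against 704 of 27025 genes with a window (2.60%) and 4.47% of those that were also tested. Among the members, the share was 42.9% of 14 genes under 10% in deleted 6, 47.1% of 17 genes at 10% to 50%, and 16.7% of 6 genes at 50% or more. CCAAT boxes (CCAAT on either strand) stood in 62.2% of the 37, against 41.1% of all genes and 42.3% of tested ones. The cell cycle homology region (TTTGAA or TTCGAA on either strand) stood in 18.9%. That was below the 21.7% of all genes and above the 16.6% of tested ones. A match describes the letters of a window and is no binding site.

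Among the helicase subunits all 6 genes were lower in every deleted library, against 23.7% of all genes, and Mcm5 and Mcm7 fell in the fit without deleted 6, against 5.07% of all genes. Mcm5 (chr8:75109569-75128439, GRCm38) had 287, 250 and 7.15 CPM in deleted 2, 4 and 6, against 385 and 432 CPM in wild-type 1 and 3. Without deleted 6 it fell by 0.59 ± 0.15 on the log2 scale (SE; edgeR adjusted p = 0.0473), and with all 5 libraries the change was -1.17 ± 1.27 (adjusted p = 0.648). Deleted 6 lay far below the other deleted libraries, and the standard error with it was larger than the change. Mcm7 (chr5:138164583-138172422) had 133, 111 and 7.48 CPM in deleted libraries, against 193 and 226 CPM in wild-type libraries. It fell by 0.77 ± 0.16 without deleted 6 (edgeR adjusted p = 0.0258). A share of 23.3% of its 50-base windows recurs in other genes, mainly the pseudogene Gm5487, so its level is uncertain.

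Mcm6 (chr1:128331590-128359664) had 429, 365 and 49.1 CPM in deleted 2, 4 and 6, against 570 and 689 CPM in wild-type 1 and 3, and Mcm3 (chr1:20802968-20820312) had 349, 292 and 48.5 CPM in deleted libraries, against 446 and 529 CPM in wild-type libraries. Both showed groups that did not overlap, and neither passed the threshold without deleted 6 (log2 fold changes of -0.65 ± 0.17 and -0.59 ± 0.16, edgeR adjusted p = 0.0518 and 0.0635). Mcm2 (276, 229 and 21.8 CPM in deleted libraries, against 342 and 424 CPM in wild-type libraries) and Mcm4 (223, 203 and 27.8 CPM in deleted libraries, against 278 and 303 CPM in wild-type libraries) had adjusted p of 0.0731 and 0.0866 there.

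The proportions of the 6 subunits, which join in equal numbers in 1 ring, were alike in 4 libraries and different in deleted 6. Per kb of exon (the union of a gene's annotated exons), the 6 genes summed to 389, 333 and 37.8 CPM per kb in deleted 2, 4 and 6, against 508 and 593 CPM per kb in wild-type 1 and 3. Of that sum Mcm5 made up 18.5%, 18.8% and 4.73% in deleted 2, 4 and 6, against 19.0% and 18.2% in wild-type 1 and 3. Mcm3 made up 23.9%, 23.4% and 34.2% in deleted libraries, against 23.4% and 23.8% in wild-type libraries. The highest subunit exceeded the lowest by 3.09, 3.13 and 7.64 times in deleted 2, 4 and 6, against 2.80 and 2.90 times in the wild-type libraries. The different proportions were thus seen in a single library.

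**Figure D4:**
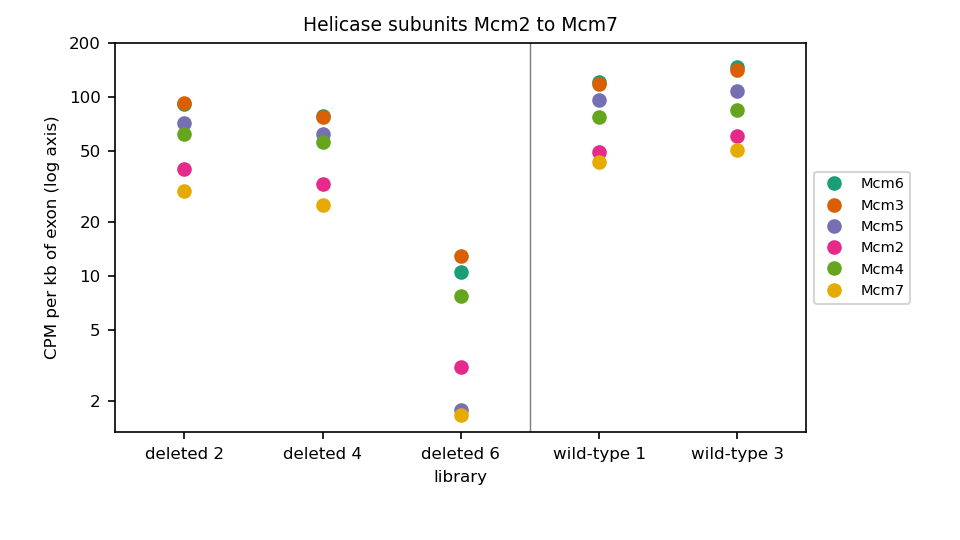
CPM per kb of exon (log axis) of the 6 helicase subunit genes in each library; each point is 1 gene in 1 library. In deleted 2, deleted 4 and both wild-type libraries the genes keep nearly the same spacing, with Mcm3 drawn over Mcm6, and in deleted 6 all are lower and Mcm5 lies beside Mcm7 at the bottom.

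Of the helicase cofactors Cdc45, Gins1 and Mcm10 fell without deleted 6, against 5.07% of all genes. Gins1 (chr2:150905400-150931280), a subunit of the GINS complex, had 14.6, 14.3 and 1.65 CPM in deleted 2, 4 and 6, against 31.7 and 27.6 CPM in wild-type 1 and 3. It fell by 1.02 ± 0.17 on the log2 scale without deleted 6 (edgeR adjusted p = 0.0124), and the change with all 5 libraries was -1.54 ± 0.87 (adjusted p = 0.441). Deleted 2 and 4 lay close together, and their mean was 48.7% of the wild-type mean. Cdc45 (chr16:18780447-18811987), the helicase activator that joins the ring and GINS, had 68.4, 65.1 and 4.12 CPM in deleted libraries, against 121 and 122 CPM in wild-type libraries. It fell by 0.85 ± 0.12 on the log2 scale without deleted 6 (edgeR adjusted p = 0.00817). Mcm10, which acts when the helicase is activated, had 69.7, 61.0 and 2.35 CPM in deleted libraries, against 92.8 and 105 CPM in wild-type libraries, and fell by 0.59 ± 0.14 (adjusted p = 0.0436).

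Of the 4 GINS genes only Gins1 passed the threshold without deleted 6, against 5.07% of all genes called lower. All 4 were lower in every deleted library than in every wild-type library, against 23.7% of all genes. Differences between the subunits were not tested. Gins3 had 19.7, 21.5 and 11.1 CPM in deleted 2, 4 and 6, against 25.1 and 33.1 CPM in wild-type 1 and 3 (log2 fold change without deleted 6 of -0.49 ± 0.19, edgeR adjusted p = 0.154). Gins4 had 54.1, 54.7 and 32.7 CPM in deleted libraries, against 64.6 and 60.2 CPM in wild-type libraries (adjusted p = 0.420), and Gins2 had 31.1, 27.2 and 7.10 CPM in deleted libraries, against 34.1 and 36.9 CPM in wild-type libraries (adjusted p = 0.309). In deleted 6 they retained 7.84% (Gins1), 21.8% (Gins2), 47.6% (Gins3) and 57.0% (Gins4) of the median of the other libraries. In Gins2, 67.3% of exon bases lie in exons of Gse1 on the other strand, and the count does not use strand as far as the kits show. Reads over both genes may have been set aside as ambiguous or counted for either, so its level is uncertain.

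Of the 9 roles, the ORC genes, whose products mark origins, had the median log2 fold change nearest to 0, at -0.13 without deleted 6. None of the 6 was called without deleted 6, against 5.07% of all genes called lower and 7.89% higher. A log2 fold change above 0 was found there for 3 of the 6, against 49.5% of all genes. Orc3 (chr4:34570796-34614944) had 128, 117 and 70.2 CPM in deleted 2, 4 and 6, against 155 and 179 CPM in wild-type 1 and 3 (log2 fold change without deleted 6 of -0.44 ± 0.14, edgeR adjusted p = 0.0915). Orc6 (chr8:85299632-85308278) had 55.4, 53.4 and 16.1 CPM in deleted libraries, against 72.4 and 63.3 CPM in wild-type libraries (-0.31 ± 0.14, adjusted p = 0.206). Those 2 genes had groups that did not overlap, with the deleted libraries lower, against 23.7% of all genes. Orc4 had 70.3, 78.8 and 66.4 CPM in deleted libraries, against 74.5 and 66.6 CPM in wild-type libraries, and Orc2 had 66.4, 64.0 and 32.9 CPM in deleted libraries, against 66.1 and 61.8 CPM in wild-type libraries. In neither did deleted 2 and 4 lie below both wild-type libraries. In Orc2, 29.8% of exon bases lie in exons of Nif3l1 on the other strand, so its level is uncertain.

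Orc1 and Orc5 stood at opposite ends of the complex in deleted 6. Orc1, the subunit known from human cells to be degraded in S phase, had 22.3, 21.5 and 1.85 CPM in deleted 2, 4 and 6, against 20.8 and 23.2 CPM in wild-type 1 and 3. It was at wild-type level in deleted 2 and 4 (log2 fold change 0.01 ± 0.16 without deleted 6, edgeR adjusted p = 0.988) and low only in deleted 6, at 8.46% of the median. Orc5 had 25.0, 29.5 and 38.3 CPM in deleted libraries, against 34.7 and 31.7 CPM in wild-type libraries (-0.27 ± 0.16 without deleted 6, adjusted p = 0.341). It was the only one of the 45 genes with its highest value in deleted 6.

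Among the licensing genes Cdc6 and Cdt1 fell without deleted 6, against 5.07% of all genes. Cdc6 (chr11:98907801-98923940), which loads the ring with Cdt1, had 71.1, 64.1 and 1.29 CPM in deleted 2, 4 and 6, against 97.8 and 115 CPM in wild-type 1 and 3. It fell by 0.64 ± 0.14 without deleted 6 (edgeR adjusted p = 0.0343), and the change with all 5 libraries was -1.22 ± 1.34 (adjusted p = 0.650). Cdt1 (chr8:122568015-122573554) had 56.9, 55.8 and 17.5 CPM in deleted libraries, against 87.6 and 89.5 CPM in wild-type libraries, and fell by 0.64 ± 0.12 without deleted 6 (adjusted p = 0.0220). The mean of deleted 2 and 4 was 63.6% of the wild-type mean for each of the pair, and in deleted 6 Cdc6 was at 1.53% and Cdt1 at 24.2% of the median. Gmnn, which encodes the Cdt1 inhibitor geminin, had 62.3, 64.3 and 17.7 CPM in deleted libraries, against 86.2 and 79.9 CPM in wild-type libraries (log2 fold change without deleted 6 of -0.38 ± 0.13, adjusted p = 0.106). The ratio of Gmnn to Cdt1 per kb was 2.35, 2.47 and 2.17 in deleted 2, 4 and 6, against 2.11 and 1.91 in wild-type 1 and 3.

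Of the 6 clamp and loader genes, Rfc3 and Rfc4 fell without deleted 6, against 5.07% of all genes. The other 4 did not pass the threshold. Rfc3 (chr5:151642756-151651242), a small subunit of the loader, had 35.5, 34.7 and 18.4 CPM in deleted 2, 4 and 6, against 59.0 and 52.5 CPM in wild-type 1 and 3. It fell by 0.66 ± 0.14 without deleted 6 (edgeR adjusted p = 0.0300), and its log2 fold change with all 5 libraries was -0.92 ± 0.33 (adjusted p = 0.313). Rfc4, another small subunit, had 46.5, 42.3 and 6.56 CPM in deleted libraries, against 66.9 and 69.0 CPM in wild-type libraries, and fell by 0.60 ± 0.13 without deleted 6 (adjusted p = 0.0337). Pcna (chr2:132249162-132253314), the sliding clamp, had 47.2, 55.4 and 36.3 CPM in deleted libraries, against 79.1 and 69.2 CPM in wild-type libraries. Its groups did not overlap, and it passed the threshold in neither fit (-0.52 ± 0.15 without deleted 6, adjusted p = 0.0739; -0.68 ± 0.23 with all 5, adjusted p = 0.303). A share of 19.1% of its windows recurs, mainly in the pseudogene Pcna-ps2.

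Rfc1, the large loader subunit, had 126, 121 and 80.8 CPM in deleted 2, 4 and 6, against 118 and 141 CPM in wild-type 1 and 3 (log2 fold change without deleted 6 of -0.06 ± 0.14, edgeR adjusted p = 0.834). Rfc2 had 195, 157 and 90.2 CPM in deleted libraries, against 176 and 196 CPM in wild-type libraries. Deleted 2 and 4 overlapped the wild-type libraries for both genes. In Rfc2, 15.1% of exon bases lie in exons of Lat2 on the other strand, so its level is uncertain. Rfc5 had 91.7, 82.6 and 20.4 CPM in deleted libraries, against 112 and 112 CPM in wild-type libraries (adjusted p without deleted 6 of 0.132).

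All 9 polymerase and primase genes were lower in every deleted library, against 23.7% of all genes, and Prim2, Pole2 and Prim1 fell without deleted 6, against 5.07% of all genes. Prim2 (chr1:33453810-33669795), the large primase subunit, had 27.1, 26.3 and 9.84 CPM in deleted 2, 4 and 6, against 47.1 and 58.1 CPM in wild-type 1 and 3. It fell by 0.97 ± 0.16 without deleted 6 (edgeR adjusted p = 0.0131), and its log2 fold change with all 5 libraries was -1.32 ± 0.47 (adjusted p = 0.311). Both wild-type values lay above all 3 deleted values. Pole2 (chr12:69201773-69228195), an accessory subunit of the leading-strand polymerase epsilon, had 22.7, 19.5 and 6.20 CPM in deleted libraries, against 36.0 and 36.2 CPM in wild-type libraries, and fell by 0.76 ± 0.16 (adjusted p = 0.0271). Prim1, the catalytic primase subunit, had 46.7, 50.5 and 4.61 CPM in deleted libraries, against 71.8 and 73.9 CPM in wild-type libraries, and fell by 0.57 ± 0.13 (adjusted p = 0.0365).

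The catalytic polymerase genes did not pass the threshold without deleted 6. Pola1, of polymerase alpha, had 58.0, 61.9 and 9.61 CPM in deleted 2, 4 and 6, against 77.9 and 93.5 CPM in wild-type 1 and 3 (edgeR adjusted p = 0.0724). Pold1, of the lagging-strand polymerase delta, had 105, 79.2 and 21.8 CPM in deleted libraries, against 111 and 144 CPM in wild-type libraries (adjusted p = 0.179). Pole, of polymerase epsilon, had 49.8, 46.8 and 1.52 CPM in deleted libraries, against 60.8 and 72.6 CPM in wild-type libraries (adjusted p = 0.0990). In deleted 6, Pole was at 2.74% and its partner Pole2 at 21.1% of the median of the other libraries. The accessory subunits Pola2, Pold2 and Pold3 had adjusted p of 0.123, 0.0539 and 0.511, and Pold3 kept the highest share of the 9 genes in deleted 6, at 64.1%.

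Of the genes that finish lagging-strand fragments, Lig1 fell without deleted 6, against 5.07% of all genes, and Fen1 did not pass the threshold. Lig1 (chr7:13277283-13311433), the ligase that seals the fragments, had 93.6, 81.0 and 6.51 CPM in deleted 2, 4 and 6, against 122 and 137 CPM in wild-type 1 and 3. It fell by 0.56 ± 0.14 without deleted 6, just inside the threshold (edgeR adjusted p = 0.0496). Fen1, the flap nuclease, had 10.7, 8.36 and 2.28 CPM in deleted libraries, against 12.1 and 14.8 CPM in wild-type libraries (-0.48 ± 0.23, adjusted p = 0.227). In Fen1, 84.2% of exon bases lie in exons of Gm10143 or Tmem258 on the other strand. Reads over those stretches may likewise have been set aside or counted for either gene, so its level is uncertain.

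None of the 3 single-strand binding genes, whose products coat unwound DNA as replication protein A, was called. Rpa1 had 206, 176 and 89.0 CPM in deleted 2, 4 and 6, against 222 and 252 CPM in wild-type 1 and 3 (log2 fold change without deleted 6 of -0.30 ± 0.15, edgeR adjusted p = 0.243). Rpa2 had 86.8, 70.5 and 12.2 CPM in deleted libraries, against 105 and 114 CPM in wild-type libraries (-0.47 ± 0.15, adjusted p = 0.0958). Rpa3 had 28.0, 29.6 and 7.58 CPM in deleted libraries, against 41.1 and 31.0 CPM in wild-type libraries (adjusted p = 0.328). In all 3 every deleted library was below every wild-type library, against 23.7% of all genes.

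All 4 nucleotide supply genes were called lower without deleted 6, against 5.07% of all genes; differences between the roles were not tested. Tk1 (chr11:117815526-117826092), the cytosolic thymidine kinase of the salvage pathway, had 31.8, 30.1 and 3.84 CPM in deleted 2, 4 and 6, against 67.3 and 70.1 CPM in wild-type 1 and 3. It fell by 1.14 ± 0.13 on the log2 scale (edgeR adjusted p = 0.00410), the largest fall of the 45 genes, and its log2 fold change with all 5 libraries was -1.65 ± 0.84 (adjusted p = 0.405). The mean of deleted 2 and 4 was 45.1% of the wild-type mean. Rrm2 (chr12:24708241-24714146), the S-phase small subunit of ribonucleotide reductase, had 404, 348 and 6.51 CPM in deleted libraries, against 616 and 689 CPM in wild-type libraries. It fell by 0.78 ± 0.15 without deleted 6 (adjusted p = 0.0229), and with all 5 libraries the log2 fold change was -1.37 ± 1.38 (adjusted p = 0.624). Deleted 6 held 1.28% of the median of the other libraries, the lowest of the 45 genes.

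Rrm1 (chr7:102441695-102469771), the large subunit, had 338, 322 and 32.9 CPM in deleted 2, 4 and 6, against 483 and 533 CPM in wild-type 1 and 3, and fell by 0.61 ± 0.14 without deleted 6 (edgeR adjusted p = 0.0359). Tyms (chr5:30058202-30073617), thymidylate synthase, had 77.7, 68.3 and 7.55 CPM in deleted libraries, against 114 and 111 CPM in wild-type libraries, and fell by 0.61 ± 0.13 (adjusted p = 0.0304). Together the 4 genes summed to 852, 768 and 50.9 CPM in deleted 2, 4 and 6, against 1281 and 1402 CPM in wild-type 1 and 3.

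Of the nucleotide enzymes outside the 45, Rrm2b, Tk2 and Samhd1, chosen after their values were seen, had their highest value in deleted 6. Deleted 6 was the lowest library for 18 of these 27 enzymes, against 37.9% of all genes, and the highest for 8. How many of all genes were highest in deleted 6 was not counted, so 8 of 27 cannot be called many or few. Rrm2b, the p53-regulated small subunit, had 8.62, 11.2 and 13.3 CPM in deleted 2, 4 and 6, against 8.92 and 10.1 CPM in wild-type 1 and 3 (log2 fold change with all 5 libraries of 0.22 ± 0.29, edgeR adjusted p = 0.705). The ratio of Rrm2 to Rrm2b per kb of exon was 155, 102 and 1.61 in deleted 2, 4 and 6, against 228 and 225 in wild-type 1 and 3. The value of deleted 6 comes from 288 counts of Rrm2 and 588 of Rrm2b. It depends on the length used: over the principal transcript of each gene, a length chosen after the data were seen, the ratio was 97.5, 64.5 and 1.02 in deleted 2, 4 and 6, against 144 and 142 in wild-type 1 and 3. Tk2, the mitochondrial thymidine kinase, had 30.4, 30.3 and 46.7 CPM in deleted libraries, against 19.7 and 26.8 CPM in wild-type libraries (0.62 ± 0.30, adjusted p = 0.387). The ratio of Tk1 to Tk2 per kb of exon was 0.718, 0.682 and 0.0566 in deleted 2, 4 and 6, against 2.35 and 1.79 in wild-type 1 and 3. Over the principal transcripts it was 1.75, 1.66 and 0.138 in deleted 2, 4 and 6, against 5.70 and 4.36 in wild-type 1 and 3, so which of the 2 genes was higher in deleted 2 and 4 turns on the length. With either length the ratio was lower in every deleted library. Samhd1, which breaks down deoxynucleotides, had 87.7, 116 and 200 CPM in deleted libraries, against 92.9 and 120 CPM in wild-type libraries, and was highest in deleted 6.

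**Figure D5:**
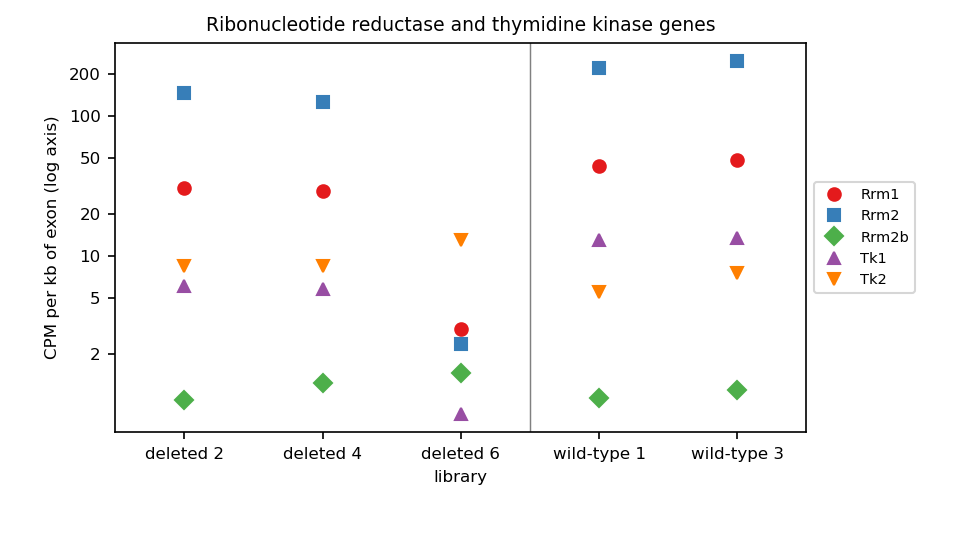
CPM per kb of exon (log axis) of the ribonucleotide reductase genes Rrm1, Rrm2 and Rrm2b and the thymidine kinase genes Tk1 and Tk2 in each library; each point is 1 gene in 1 library. Rrm2 lies at the top in 4 libraries and below Rrm1 and Tk2 in deleted 6, and Tk1 lies above Tk2 in the wild-type libraries and below it in the deleted ones, furthest in deleted 6.

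The order of the 45 genes by level per kb changed in deleted 6. Per kb of exon, Rrm2 ranked 1 in deleted 2, deleted 4 and both wild-type libraries, and Mcm6 ranked 3 in deleted 2 and 2 in the other 3. In deleted 6 Rrm2 ranked 28, at 2.35 CPM per kb, and Mcm6 ranked 10. The leading genes there were Gins4 at 24.3 CPM per kb and then Rpa1, followed by Pcna at 15.1, Rfc2 at 14.3 and Rfc1 at 13.4 CPM per kb. Over principal transcripts Rrm2 again ranked 1 in those 4 libraries and 30 in deleted 6, where Orc3 at 30.5 and Gins4 at 24.3 CPM per kb led.

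Other genes of the same pathways, 33 fork partners and 27 nucleotide enzymes outside the 45, were also mostly lower in the libraries labelled deleted. With all 5 libraries edgeR called 0 of the 60 in either direction, as it did for all genes. At an unadjusted p under 0.05 it had 3 lower and 1 higher, against 5.42% and 9.44% of all genes. Without deleted 6 it called 12 lower and 1 higher, against 5.07% and 7.89% of all genes. In 45 of the 60 every deleted library was below every wild-type library, against 23.7% of all genes, and in 3 (Impdh1, Tk2 and Dguok) every one was above, against 22.4%. Asf1b, a histone chaperone at the fork, had 100, 103 and 4.97 CPM in deleted 2, 4 and 6, against 185 and 187 CPM in wild-type 1 and 3, and fell by 0.86 ± 0.12 without deleted 6 (adjusted p = 0.00777). Rnaseh2c, a subunit of the nuclease that removes ribonucleotides from DNA, had 31.3, 31.3 and 14.0 CPM in deleted libraries, against 59.6 and 55.4 CPM in wild-type libraries, and fell by 0.86 ± 0.14 (adjusted p = 0.0110), whereas Rnaseh2a of the same nuclease had 48.6, 40.5 and 33.4 CPM in deleted libraries, against 56.8 and 59.3 CPM in wild-type libraries (adjusted p = 0.163). Deleted 2 and 4 nearly coincided for Asf1b and for Rnaseh2c. In Rnaseh2c, 24.8% of exon bases lie in exons of Kat5 on the other strand, so its level is uncertain.

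Among the nucleotide enzymes outside the 45, Shmt1, which makes one-carbon units for thymidylate in the cytosol, had 59.6, 51.8 and 3.48 CPM in deleted 2, 4 and 6, against 101 and 95.3 CPM in wild-type 1 and 3. It fell by 0.80 ± 0.14 without deleted 6 (edgeR adjusted p = 0.0143). Mthfd1, another folate enzyme, had 114, 96.6 and 63.6 CPM in deleted libraries, against 147 and 173 CPM in wild-type libraries (-0.59 ± 0.15, adjusted p = 0.0514). Impdh1, an enzyme of guanine nucleotide synthesis, was the only one of the 60 genes called higher without deleted 6. It had 152, 122 and 87.8 CPM in deleted libraries, against 70.4 and 66.7 CPM in wild-type libraries. It rose by 1.01 ± 0.15 without deleted 6 (adjusted p = 0.00933), and with all 5 libraries its log2 fold change was 0.81 ± 0.28 (adjusted p = 0.296). All 3 deleted libraries lay above both wild-type libraries for Impdh1, deleted 6 least.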

How the data were processed

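RNA of Kit+ cells was made into 5 libraries (SMART-Seq v4, then Nextera XT), per the labels, and neither kit marks strand. The submitters' processing notes name STAR, bcl2fastq 1.8.4, DESeq2 1.12.4 and mm10; the sources used here do not state the annotation or how reads were counted. The authors deposited whole-number counts for 46603 genes per library. They also deposited a normalized signal, equal to those counts over 1 size factor per library, and a transformed table on a log2 scale. The first served for symbols and 1 alternative, and the second for a comparison of scale only.

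Rows without a gene stayed out; they held 5.891% to 8.094% of a library's reads with no feature, 2.363% to 2.781% ambiguous, 2.481% to 4.129% unaligned and 12.966% to 15.113% aligned to several places. Genes kept by filterByExpr (16120) were scaled by TMM and tested with edgeR 4.0.16 (quasi-likelihood F test; limma 3.58.1, R 4.3.3) on genotype, with 3 residual degrees of freedom, or 2 without deleted 6. The Benjamini-Hochberg adjustment ran over all tested genes, with a call under 0.05. Each SE of an edgeR fit is the size of the log2 fold change over the square root of its F statistic. The test was also run on simulated counts. No simulated library stood apart as deleted 6 does, so that run does not cover such a library. Alternatives were RLE factors, library totals, no filter, a mean of at least 5 CPM, DESeq2 1.42.0, limma-voom with sample weights, limma on log2(normalized signal + 1), lane 4 (from the deposited files' names), and each library left out. An exact permutation test of 2 against 3 cannot give a two-sided p under 0.1 and was not used. No library was another deposited again, since every pair differed beyond sampling noise (lowest chi-square per gene, 50.2). A count of 3 equals 0.0526 to 0.0723 CPM, for counting error only.

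Coordinates and exon lengths are from GENCODE M21 on GRCm38, and promoters from RefSeq on GRCm38.p6. Levels per kb divide CPM by the union of a gene's exons, which includes retained introns of some transcripts; the length of the APPRIS principal transcript was an alternative added after the data were seen. The members and lists were chosen with earlier results of these data known. Genes given library by library were, per role, the 2 with the smallest p in each of both fits, up to 3 called, and the 3 lowest and 3 highest in deleted 6. The other genes named were chosen after their values were seen.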

Additional observations from a re-analysis of the deposited data

How the results depend on the processing

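Over all 5 libraries the members called stayed at 0 lower and 0 higher with RLE factors, library totals, no filter, the stricter filter, DESeq2 and limma on the authors' signal, and within lane 4. With limma-voom 5 were called lower, and leaving out 1 library each gave 0 to 17 lower and 0 to 0 higher; the 17 came without deleted 6. The members' median log2 fold change ran from -1.33 to -0.50 with 1 library left out, and was -1.07 with library totals, which moved the median of all genes by -0.199. For the other pathway genes limma-voom called 5 lower and 1 higher, and leaving out 1 library gave 0 to 12 lower and 0 to 1 higher. All genes called, higher and lower, were 0 and 0 in edgeR, 927 and 492 with DESeq2, 1230 and 947 with limma-voom, 211 and 131 in lane 4, 163 and 115 with no filter, and 0 to 1245 and 0 to 800 with 1 library left out. Log2 fold changes near 0 changed sign: with 1 library left out, Orc1 ran from -0.91 to 0.01 (0.01 without deleted 6), Orc2 from -0.40 to 0.04, Orc4 from -0.05 to 0.11, Orc5 from -0.27 to 0.03 and Samhd1 from -0.05 to 0.57. Orc2 was 0.09, Rrm2b -0.02 and Samhd1 -0.23 in lane 4, and Orc4 was -0.17 and Rrm2b -0.02 with library totals. The cause was not tested. Per kb of principal transcript, an alternative added after seeing the data, Tk1 over Tk2 was 1.75 in deleted 2 and 1.66 in deleted 4, against 0.718 and 0.682 per kb of exon, because the length alone differs. No paired analysis was possible because the groups share no replicate number. Lane 4 leaves 1 residual degree of freedom and 1 wild-type library, assumed to vary like the deleted ones, and 3 against 2 libraries limit every test here.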

Other observations

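The authors' transformed table showed smaller differences for these genes than their normalized signal did. Over the 45 genes the median of deleted 6 minus the wild-type mean was -1.58 in the transformed table, with a range from -3.37 to 0.15, and -2.52 on log2(normalized signal + 1), with a range from -6.62 to 0.23. For the mean of deleted 2 and 4 minus the wild-type mean the medians were -0.36 and -0.52.

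In 8 of the 60 other pathway genes deleted 6 was the highest of the 5 libraries. The share over all genes was not counted, so 8 of 60 cannot be called many or few. The 8 were Rrm2b, Samhd1, Ctps2, Nme2, Tk2, Dguok, Cmpk1 and Guk1, all nucleotide enzymes. Dguok, the mitochondrial deoxyguanosine kinase, had 30.4, 28.8 and 39.7 CPM in deleted 2, 4 and 6, against 23.9 and 27.0 CPM in wild-type 1 and 3 (log2 fold change with all 5 libraries of 0.37 ± 0.23, edgeR adjusted p = 0.466). Among the 33 fork partners deleted 6 was the lowest library for all 33, against 37.9% of all genes. These genes were chosen after their values were seen.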
